A study of Mus musculus with 9 samples.

Results

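The genes described here are 10 textbook genes of the epithelial to mesenchymal transition: the cadherins Cdh1 and Cdh2, the surface protein gene Epcam, the intermediate filament gene Vim, the matrix gene Fn1, and the transcription factor genes Snai1, Snai2, Zeb1, Zeb2 and Twist1. They were chosen by name, and each matched 1 of the 48440 genes in the count tables through its gene identifier. RNA was measured in J1 cells, a line of mouse embryonic stem cells, of genotype Suz12-AID, in which the Polycomb protein Suz12 carries a tag that lets auxin trigger its destruction. All 9 libraries share this genotype and a medium with leukemia inhibitory factor and the 2i inhibitors PD0325901 (a MEK inhibitor) and CHIR99021 (a GSK3 inhibitor). The 3 groups of 3 libraries, which the submitters call biological replicates, are Mock, Auxin and Reintroduction. Auxin is indole-3-acetic acid at 50 µM for 96 h, and Reintroduction is the same treatment followed by a 4.5 h washout of auxin. The degron is present in the controls too. The labels do not say whether the line is 1 clone or how Mock cells were handled, and protein was not measured here.

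In an epithelial to mesenchymal transition, cells loosen the E-cadherin junctions that hold a sheet together and take up a motile state with N-cadherin, vimentin and fibronectin. SNAI, ZEB and TWIST factors drive it, and SNAI and ZEB proteins bind E-box sequences in the promoters of epithelial genes and repress them. Mouse embryonic stem cells in this medium are themselves an epithelial-like cell type that needs E-cadherin for compact colonies, and several genes of the transition carry Polycomb marks in stem cells. Polycomb repressive complex 2 (PRC2), of which Suz12 is a core subunit, methylates histone H3 at CpG-rich promoters of silent developmental genes.

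Promoter windows show what kind of start sites these genes have. RefSeq windows (build GRCm38.p6, 250 bases before to 50 bases after a start site) were used for Epcam, Vim, Snai1, Zeb2 and Twist1. None was used for Cdh1, Cdh2, Fn1, Snai2 and Zeb1, which does not mean that RefSeq holds no start site for them. The 3 stretches below are the 250 bases before the start site of 3 of the 10 genes that were called higher in Auxin, given 5′ to 3′ on the strand of the gene. Capitals mark the E-box CACCTG or its reverse complement CAGGTG, the letters that SNAI and ZEB proteins recognise. They lie at chr17:87635729-87635978, chr2:167537945-167538194 and chr12:33957421-33957670, respectively, all on the plus strand.
Epcam: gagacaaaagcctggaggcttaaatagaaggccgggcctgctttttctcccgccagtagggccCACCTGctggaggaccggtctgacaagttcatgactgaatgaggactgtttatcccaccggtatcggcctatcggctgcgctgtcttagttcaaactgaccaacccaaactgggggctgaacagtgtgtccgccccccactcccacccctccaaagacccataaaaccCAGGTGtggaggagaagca
Snai1: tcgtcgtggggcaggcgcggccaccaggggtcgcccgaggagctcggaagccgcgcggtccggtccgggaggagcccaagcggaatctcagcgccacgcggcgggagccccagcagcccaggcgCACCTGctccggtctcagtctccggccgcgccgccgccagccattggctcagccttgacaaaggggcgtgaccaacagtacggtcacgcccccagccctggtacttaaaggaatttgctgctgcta
Twist1: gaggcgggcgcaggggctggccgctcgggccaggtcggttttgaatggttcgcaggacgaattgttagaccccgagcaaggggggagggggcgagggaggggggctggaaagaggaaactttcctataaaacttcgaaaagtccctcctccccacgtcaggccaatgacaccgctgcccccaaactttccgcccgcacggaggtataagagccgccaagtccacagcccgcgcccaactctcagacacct

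The Snai1 window held 34 CpG dinucleotides in its 300 bases and the Twist1 window held 27, more than 92.3% and 84.5% of the 32851 windows used. The Epcam and Vim windows held 11 each, against a median of 7 over all windows, and the 4 Zeb2 windows held between 8 and 19. The E-box, searched on both strands over the 300 bases, was found at positions -187 and -19 from the start site of Epcam and at position -126 of Snai1. It was not found in the windows of Vim, Zeb2 and Twist1, and 20.2% of all windows hold at least 1. The Vim window lies inside a first exon of another annotated transcript and is not shown. These matches describe letters only and say nothing of binding.

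Library totals lay between 44341283 and 113931419 counts, and both mates of a pair may have been counted. Within groups, pairs of libraries correlated at 0.989 to 0.995 (Pearson, log2 CPM across genes), and Auxin replicate 2 stood apart, at 0.990 and 0.989 with the other Auxin libraries against 0.995 between those. Without it, 10 of the 10 genes were called for Auxin against Mock, 7 for Reintroduction against Auxin and 6 for Reintroduction against Mock. Mitochondrial genes took 3.79% to 4.0% of counts in Mock and Auxin libraries and 4.58% to 4.80% in Reintroduction libraries. The libraries also differed in their relation of level to gene length. For each gene, log2 CPM was taken relative to its mean over the 9 libraries. Per doubling of exon length, this value moved by -0.18 to -0.13 in Mock, 0.03 to 0.12 in Auxin and 0.06 in each Reintroduction library. These slopes were fitted over genes with a mean above 2 log2 CPM and compare the libraries with each other. Exon lengths of the 10 genes run from 1616 bp (Twist1) to 19942 bp (Zeb2). Values with this trend removed are therefore given beside some results. The rest, those of Cdh1 and of the list genes Dsp, Patj and Cdh4 among them, are given as fitted in the text. They may hold part of the trend. CPM is the count per 1000000 counts of the library, with the library total scaled by its TMM normalization factor (0.905 in Mock replicate 1 to 1.079 in Auxin replicate 3). Of 8 pluripotent stem cell markers, 0 were under 1 CPM in all libraries of a group. Their summed level was 5543 to 5668 CPM in Mock, 6783 to 7287 CPM in Auxin and 5310 to 5409 CPM in Reintroduction. In Auxin against Mock 6 were called higher and 2, Pou5f1 and Dppa5a, lower (38.4% and 34.8% of all genes). Of 9 fibroblast markers, 7 stayed under 1 CPM in every library, Col1a1, Col1a2 and Col3a1 among them, and Twist2 had 0 counts in all libraries. The summed level of that list was 22.0 to 24.6 CPM in Mock, 44.2 to 53.5 CPM in Auxin and 41.0 to 42.3 CPM in Reintroduction, nearly all of it from Thy1 and Pdgfrb. In bulk RNA, fewer cells of a type and less RNA per cell cannot be told apart.

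Set side by side per length, the epithelial and matrix genes were far above the transcription factors. In Mock the length-scaled level (CPM per kb of exon, mean ± SD, n = 3 for all groups) was 144.0 ± 2.86 for Cdh1, 74.6 ± 3.71 for Fn1, 37.9 ± 2.03 for Vim and 12.5 ± 0.069 for Epcam. It was 2.64 ± 0.57 for Snai1, 1.10 ± 0.084 for Zeb1, 0.581 ± 0.057 for Cdh2 and 0.503 ± 0.086 for Twist1. Snai2 (0.167 ± 0.036) and Zeb2 (0.013 ± 0.0084) were lowest. Cdh2 and Twist1 were neighbours that did not differ beyond their spread; the other neighbours were separated by more than their SDs. In Auxin the order changed below Fn1, where Epcam (30.7 ± 3.00) stood above Vim (6.92 ± 0.42), and Twist1 (1.36 ± 0.092) stood above Cdh2 (0.750 ± 0.083). In Reintroduction Vim (29.6 ± 0.92) was again above Epcam (20.7 ± 0.67).

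Of the 10 genes, all 10 were expressed enough to be tested, 9 were called higher and 1, Vim, lower in Auxin than in Mock (edgeR quasi-likelihood, adjusted p under 0.05). Over all 20838 genes tested, 73.2% were called in this comparison, 38.4% higher and 34.8% lower. The median log2 fold change of the 10 genes was 1.12, and that of all genes was 0.05. All 10 also had CPM values that did not overlap between the groups, as 74.3% of genes did. With a fold of at least 2 also required, 7 of the 10 were called (31.8% of all genes). In Reintroduction against Auxin, 7 of the 10 were called, 1 higher and 6 lower (50.9% of all genes were called, 25.5% in each direction), with a median of -0.47 against 0.003 for all genes. The groups were separate for 7 (58.2% of all genes), and 4 were called with a fold of at least 2 (2289 of the 20838 genes). In Reintroduction against Mock, 5 of the 10 were called, 4 higher and 1 lower (68.1% of all genes, 34.7% higher and 33.4% lower), with a median of 0.31 against 0.03. The groups were separate for 6 (75.2% of all genes), and 2 were called with a fold of at least 2 (22.4%). The comparisons share libraries and are therefore not independent of each other.

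**Figure D1:**
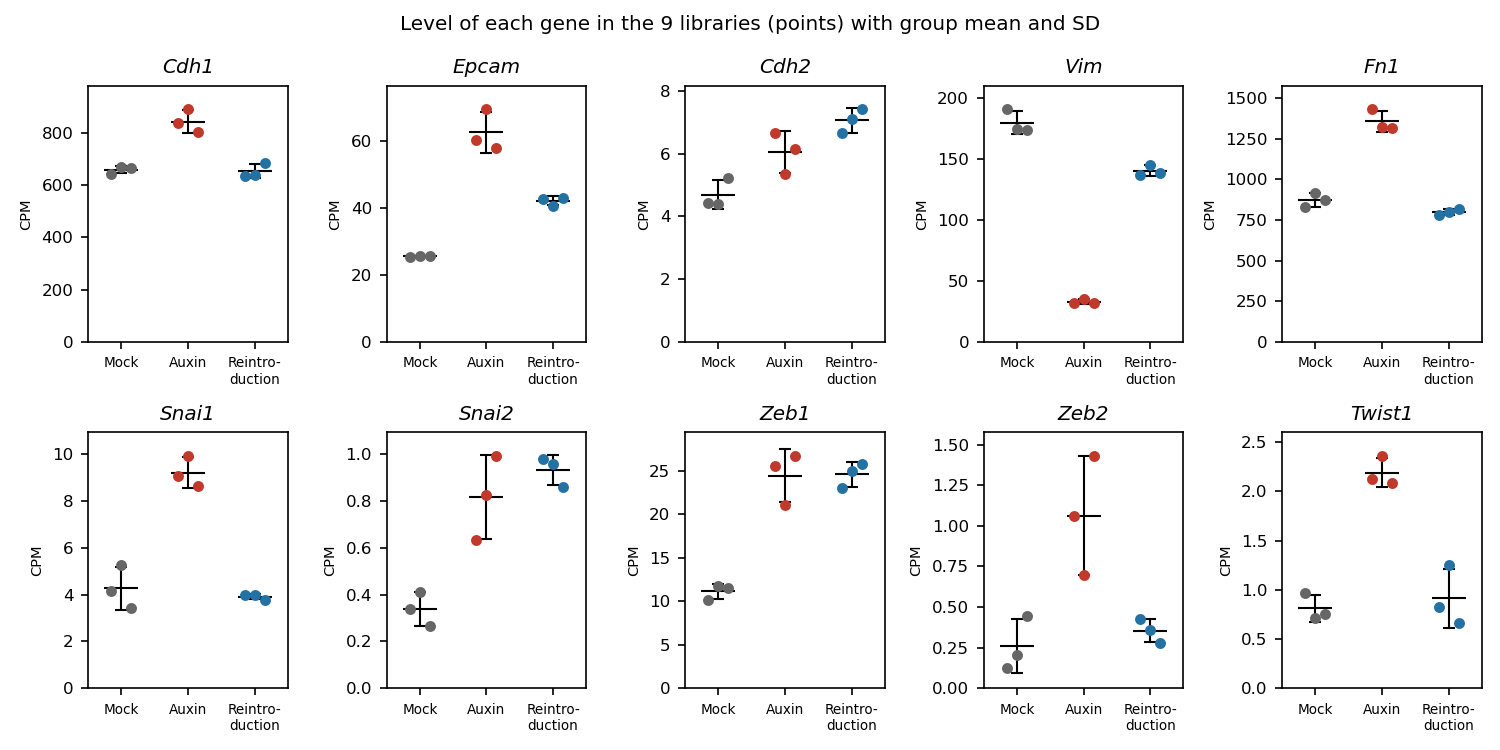
Level of each of the 10 genes in the 9 libraries. The vertical axes give CPM (TMM-scaled) from 0, each gene on its own scale; points are libraries, horizontal bars group means and error bars SD (n = 3). Vim is lowest in the Auxin libraries (31.6 to 35.1 CPM), and the other 9 genes are higher in every Auxin library than in any Mock library.

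Cdh1 encodes E-cadherin, the adhesion protein of epithelial junctions (mm10 chromosome 8, 106603351 to 106670246). Its level was 644, 667 and 666 CPM in Mock replicates 1 to 3, 836, 890 and 802 CPM in Auxin, and 635, 638 and 686 CPM in Reintroduction. The Auxin libraries lay above all others, and the Mock and Reintroduction libraries overlapped. Cdh1 rose 1.28-fold in Auxin (log2 fold change 0.35, SE 0.057, adjusted p = 1.65e-04) and fell by 0.37 in log2 units in Reintroduction against Auxin (SE 0.057, adjusted p = 2.82e-04). Its difference between Reintroduction and Mock was -0.01 (SE 0.057) and did not pass (adjusted p = 0.856). Under total-count scaling, which moves the median of all genes in Auxin against Mock from 0.05 to 0.26, the Auxin rise was 0.56.

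Epcam (chromosome 17, 87635979 to 87651106) encodes an adhesion protein of the epithelial surface that embryonic stem cells also carry. It had 25.5, 25.7 and 25.6 CPM in Mock, 60.3, 69.6 and 58.1 CPM in Auxin, and 42.9, 40.7 and 43.1 CPM in Reintroduction. The 3 groups did not overlap, and Reintroduction lay between the other two. Epcam rose 2.45-fold in Auxin (log2 fold change 1.29, SE 0.069, adjusted p = 2.15e-08). It then fell by 0.57 in log2 units in Reintroduction (SE 0.068, adjusted p = 4.24e-05) and was still 1.65-fold above Mock (adjusted p = 4.03e-06). With the length trend removed the Auxin rise was 1.52.

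Vim encodes vimentin, the intermediate filament protein of mesenchymal cells, which cultured stem cells also express (chromosome 2, 13573927 to 13582826). Its level was 191, 175 and 174 CPM in Mock, 31.6, 35.1 and 31.7 CPM in Auxin, and 137, 145 and 139 CPM in Reintroduction. The highest Auxin library had less than any library of the other groups. Vim fell by 2.45 in log2 units in Auxin, or 5.48-fold (SE 0.064, adjusted p = 1.72e-10). In the 4.5 h after washout it rose 4.28-fold (log2 fold change 2.10, SE 0.063, adjusted p = 1.68e-09), to 78.1% of the Mock mean, and its remaining difference from Mock was -0.36 (SE 0.060, adjusted p = 3.00e-04; -0.23 under total counts). Vim moved more than 93.8% of all genes in Auxin against Mock and more than 98.1% in Reintroduction against Auxin, by the size of the log2 fold change.

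The libraries show the opposite course of Vim and Epcam within each sample, where scaling between libraries plays no part. The ratio of Vim to Epcam, both per length, was 3.23, 2.92 and 2.92 in the Mock libraries. It was 0.225, 0.217 and 0.235 under Auxin, and 1.38, 1.54 and 1.38 after Reintroduction. Vim was above Epcam in each Mock and Reintroduction library and below it in each Auxin library. Vim has more exon than Epcam (4743 bp against 2040 bp), and the length trend that differs between the libraries was not removed from this ratio. No test was made on this ratio, since both genes were chosen with earlier results known.

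Cdh2 encodes N-cadherin, the cadherin that replaces E-cadherin in mesenchymal and neural cells (chromosome 18, 16588877 to 16809246). It had 4.43, 4.41 and 5.22 CPM in Mock, 6.67, 5.34 and 6.15 CPM in Auxin, and 6.65, 7.11 and 7.41 CPM in Reintroduction. Mock was lowest, and the ranges of Auxin and Reintroduction met. As fitted, Cdh2 was higher in Auxin (log2 fold change 0.37, SE 0.11, adjusted p = 7.45e-03) and higher in Reintroduction against Mock (0.59, SE 0.11, adjusted p = 4.28e-04), and its difference between Reintroduction and Auxin was 0.22 and did not pass (adjusted p = 0.101). The call in Auxin was lost without the length trend: with that trend removed the value was -0.04 (adjusted p = 0.728), and with length and GC trends removed it was 0.002 (adjusted p = 0.989). Under total counts it was 0.58. For Reintroduction against Mock the same alternatives gave 0.19 (adjusted p = 0.0869) and 0.29 (adjusted p = 0.018), and that against Auxin passed with both trends removed (0.29, adjusted p = 0.0218).

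E-cadherin RNA exceeded N-cadherin RNA in every library. Per length, Cdh2 stood at 0.0039, 0.0037 and 0.0044 of Cdh1 in the Mock libraries, at 0.0045, 0.0034 and 0.0043 under Auxin, and at 0.0059, 0.0063 and 0.0061 after Reintroduction. The Mock and Auxin ratios overlapped, and the Reintroduction ratios were higher than both. Cdh2 is the longer gene (8066 bp of exon against 4574 bp), and these ratios do not remove the length trend that differs between the libraries. Among 105 genes of the related lists described below, the 3 whose log2 CPM followed Cdh1 most closely over the 9 libraries were Nectin1, Id3 and Spint2 (root mean square difference 0.11, 0.11 and 0.13 after centring on Mock). For Cdh2 they included Fbxw7 (0.12) and Tns1 (0.13).

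Fn1 encodes fibronectin, a matrix protein that integrins bind (chromosome 1, 71585520 to 71653200). It had 828, 914 and 874 CPM in Mock, 1431, 1322 and 1315 CPM in Auxin, and 781, 800 and 817 CPM in Reintroduction. The Auxin libraries were highest, and Reintroduction lay just under Mock without overlap. As fitted, Fn1 was higher in Auxin (log2 fold change 0.64, SE 0.059, adjusted p = 1.68e-06), but with the length trend removed the value was 0.07 and did not pass (adjusted p = 0.314). With length and GC trends removed together it was 0.17 and passed (adjusted p = 2.36e-03). After washout Fn1 fell by 0.76 in log2 units (SE 0.059, adjusted p = 1.47e-06), and by 0.79 with the length trend removed. Against Mock the Reintroduction value was -0.13 and did not pass (adjusted p = 0.0765). It passed with the length trend removed (-0.72), with both trends removed (-0.49), with DESeq2 (-0.15), in a fit of these 2 groups alone (-0.12) and without Mock replicate 1 (-0.19), Auxin replicate 1 (-0.15) or Auxin replicate 2 (-0.15). Fn1 shares 292 bp of exon with a gene on the other strand, and the counting used no strand.

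Snai1 and Snai2 encode the zinc finger repressors Snail and Slug. Snai1 (chromosome 2, 167538195 to 167542814) had 4.14, 5.25 and 3.43 CPM in Mock, 9.05, 9.92 and 8.62 CPM in Auxin, and 3.96, 3.97 and 3.79 CPM in Reintroduction. It was raised in the Auxin libraries alone, and the Reintroduction values fell inside the Mock range. It rose 2.15-fold in Auxin (log2 fold change 1.10, SE 0.13, adjusted p = 1.44e-05) and fell by 1.24 in log2 units after washout (SE 0.13, adjusted p = 1.98e-05). The Reintroduction value against Mock was -0.13 (adjusted p = 0.401), and it turned to 0.09 with the length trend removed and to 0.01 without Mock replicate 2.

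Snai2 (chromosome 16, 14705852 to 14709395) was much lower, with 35, 34 and 19 raw counts in the Mock libraries, 52, 63 and 68 under Auxin and 78, 43 and 70 after Reintroduction. These correspond to 0.340, 0.410 and 0.266 CPM, then 0.634, 0.827 and 0.993 CPM, then 0.979, 0.958 and 0.858 CPM. Mock stood below both other groups, which overlapped. Snai2 rose 2.38-fold in Auxin (log2 fold change 1.25, SE 0.23, adjusted p = 5.04e-04) and was 2.72-fold above Mock in Reintroduction (adjusted p = 2.21e-04). Between Reintroduction and Auxin its difference was 0.19 (SE 0.22, adjusted p = 0.494).

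**Figure D2:**
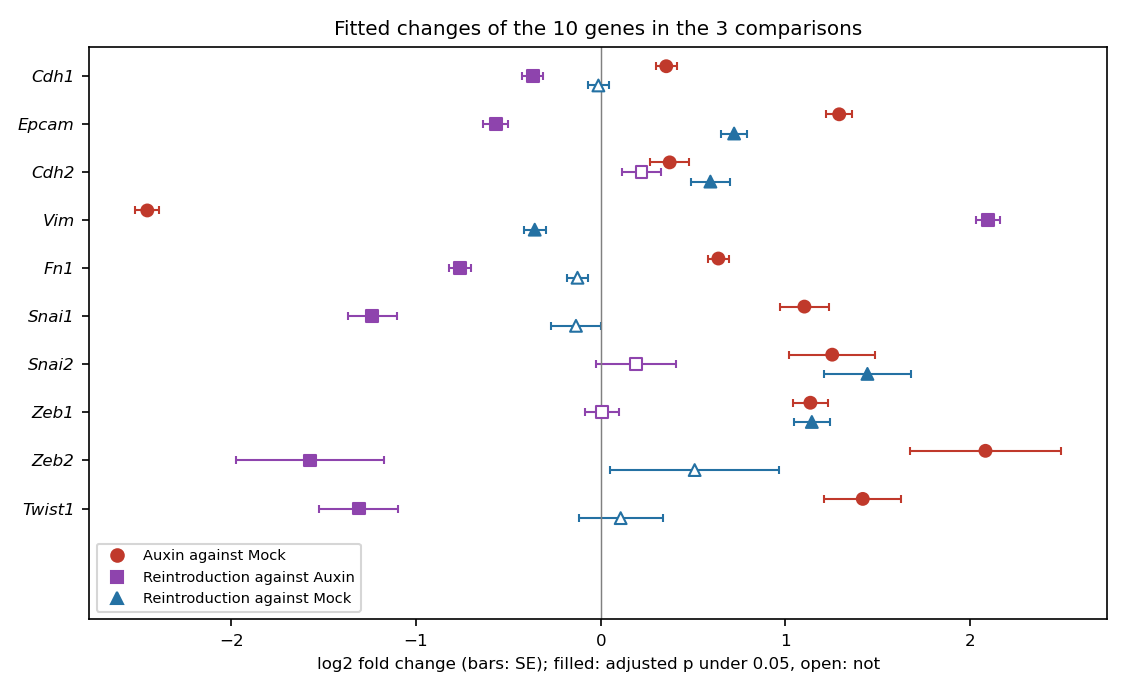
Fitted log2 fold changes of the 10 genes in the 3 comparisons. The horizontal axis is the log2 fold change with its SE; filled symbols passed an adjusted p of 0.05 and open symbols did not. Snai1, Twist1, Zeb2, Fn1 and Cdh1 have filled symbols on both sides of 0 and an open symbol for Reintroduction against Mock, whereas Zeb1 and Snai2 have an open symbol for Reintroduction against Auxin.

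Zeb1 and Zeb2 encode a pair of zinc finger and homeodomain repressors. Zeb1 (chromosome 18, 5591860 to 5775467) had 10.2, 11.7 and 11.5 CPM in Mock, 25.6, 21.0 and 26.7 CPM in Auxin, and 23.0, 24.9 and 25.8 CPM in Reintroduction. Auxin and Reintroduction overlapped, and both lay above Mock. Zeb1 rose 2.20-fold in Auxin (log2 fold change 1.14, SE 0.096, adjusted p = 8.27e-07) and was 2.21-fold above Mock in Reintroduction (adjusted p = 1.54e-06). The difference between Reintroduction and Auxin was 0.01 (SE 0.094, adjusted p = 0.953) and changed sign under several alternatives. With the length trend removed the rise over Mock was 0.62 in both Auxin and Reintroduction and still passed (adjusted p = 2.44e-06 and 3.85e-06). Zeb1 shares 198 bp of exon with Gm10125 on the other strand.

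Zeb2 (chromosome 2, 44983632 to 45117395) was near the limit of detection, with 13, 17 and 32 counts in the Mock libraries, 87, 53 and 98 under Auxin, and 34, 16 and 23 after Reintroduction. The corresponding levels were 0.126, 0.205 and 0.448 CPM, then 1.06, 0.695 and 1.43 CPM, then 0.427, 0.356 and 0.282 CPM. Each Auxin library was above every other library, and Mock and Reintroduction overlapped. Zeb2 rose in Auxin (log2 fold change 2.08, SE 0.41, adjusted p = 7.13e-04; 1.29 with the length trend removed) and fell by 1.57 in log2 units after washout (SE 0.40, adjusted p = 6.88e-03). Against Mock the Reintroduction value was 0.51 (SE 0.46, adjusted p = 0.343). That value was -0.34 with the length trend removed, and among the alternatives it passed only without Mock replicate 3 (1.09, adjusted p = 0.0499). Zeb2 shares 476 bp of exon with Zeb2os and Gm27761 on the other strand and Mir5129 on its own.

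Twist1, a basic helix-loop-helix factor of mesoderm and neural crest, lies on chromosome 12 (33957671 to 33959817). It had 0.971, 0.712 and 0.755 CPM in Mock, 2.12, 2.36 and 2.09 CPM in Auxin, and 0.828, 1.25 and 0.662 CPM in Reintroduction. Auxin was apart from the other groups, and Reintroduction spanned the Mock range. Twist1 rose 2.67-fold in Auxin (log2 fold change 1.42, SE 0.21, adjusted p = 8.02e-05; 1.72 with the length trend removed) and fell by 1.31 in log2 units after washout (SE 0.21, adjusted p = 3.91e-04). Its difference between Reintroduction and Mock was 0.11 (SE 0.23, adjusted p = 0.689).

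The transcription factors fell into separate sets by their calls after the 4.5 h washout, as the plot of fitted changes shows. Snai1, Zeb2 and Twist1 were called lower in Reintroduction than in Auxin, and their values against Mock did not pass. Zeb1 and Snai2 were called higher than Mock in both Auxin and Reintroduction, and their values in Reintroduction against Auxin did not pass. Whether the factors differ from each other in this change was not tested.

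Removing the length trend leaves 8 of the 10 genes called in Auxin against Mock, 7 higher and 1 lower, with Cdh2 and Fn1 lost. The short genes Epcam, Snai1, Snai2 and Twist1 then had larger rises than as fitted, and the long genes Zeb1 and Zeb2 smaller ones. Vim, of middle length, was at -2.58. With length and GC trends removed together, 9 were called.

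**Figure D3:**
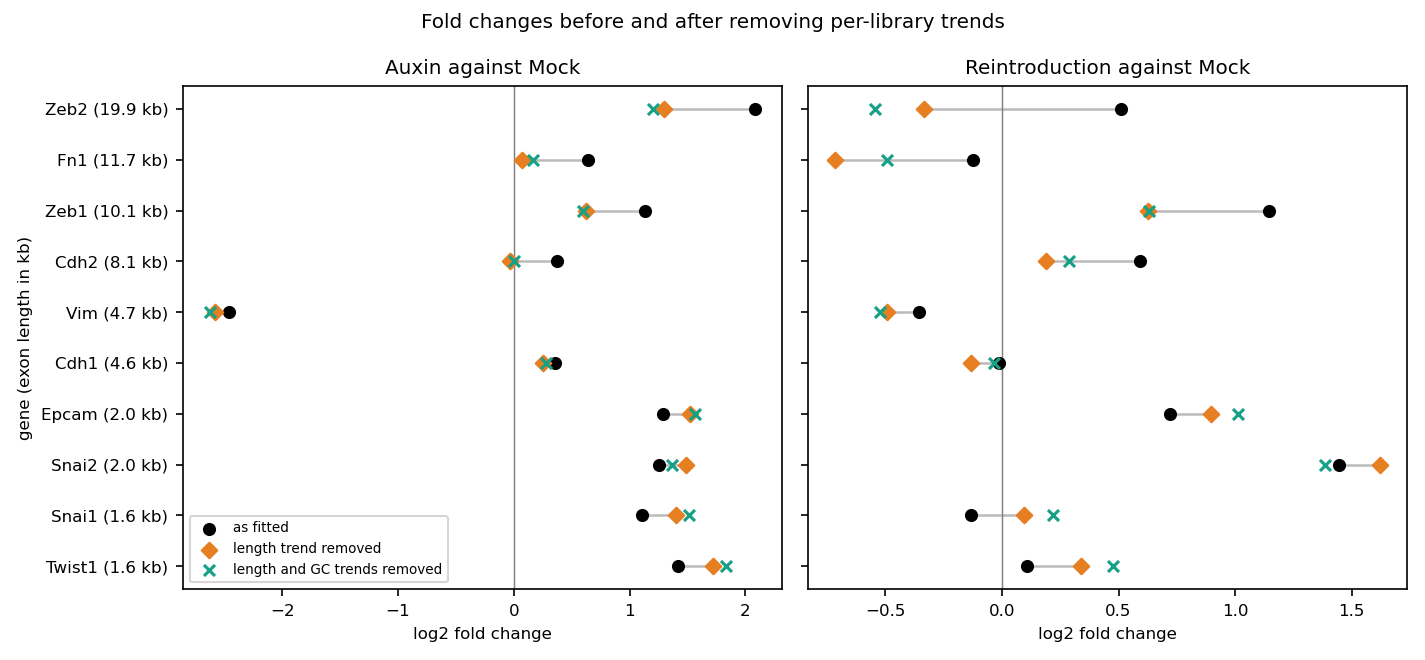
Log2 fold changes of the 10 genes as fitted (circles), with the per-library length trend removed (diamonds) and with length and GC trends removed (crosses), for Auxin against Mock (left) and Reintroduction against Mock (right). Genes are ordered by exon length; in the left panel Cdh2 and Fn1 move to -0.04 and 0.07, and Vim and the short genes keep their direction.

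Junction genes of epithelia were examined next, since repression of these genes by SNAI and ZEB factors is a textbook step of the transition. The counts of this and the following lists stand beside the shares over all genes: 38.4% higher and 34.8% lower in Auxin against Mock, 25.5% each way in Reintroduction against Auxin, and 34.7% higher and 33.4% lower in Reintroduction against Mock. Of 35 epithelial junction and surface genes, all tested, 25 were called higher and 6 lower in Auxin (median log2 fold change 1.11). Dsc2, a desmosomal cadherin, rose from 0.577 ± 0.016 to 26.2 ± 2.5 CPM (log2 fold change 5.50, SE 0.10, adjusted p = 6.73e-11). Dsp, the desmosome plaque protein desmoplakin, rose by 3.61 and the polarity protein gene Patj by 3.04. In Reintroduction against Auxin, 10 genes of the list were higher and 19 lower, and against Mock 25 were higher and 6 lower. Dsc2 fell by 1.88 after washout on the log2 scale, to 7.12 ± 0.21 CPM, whereas the fall of Dsp was 0.30 (adjusted p = 6.12e-03).

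Transcription and splicing factors that keep cells epithelial formed the next list. Of 11 tested (12 listed), 9 were called higher and 2, Ovol2 and Ehf, lower in Auxin, with a median of 1.18. Esrp1, an RNA-binding protein that sets epithelial splicing, rose from 5.45 ± 0.19 to 71.4 ± 3.26 CPM (log2 fold change 3.71, SE 0.063, adjusted p = 6.73e-11) and stood at 24.7 ± 0.83 CPM in Reintroduction. Grhl1, a grainyhead factor, rose by 2.10. After washout 8 of the 11 were called lower and 2 higher, and against Mock 7 were higher and 1 lower.

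Of 12 tested other factors linked to the transition (15 listed), 4 were called higher and 6 lower in Auxin, with a median of -0.42. The list also holds Id1, Id2 and Id3, which were not set apart from the factors that drive the transition. T, the primitive streak factor brachyury, fell from 9.82 ± 0.31 to 0.255 ± 0.13 CPM (log2 fold change -5.23, SE 0.21, adjusted p = 2.95e-09) and stood at 1.36 ± 0.16 CPM in Reintroduction. Tcf3, which encodes E2A proteins, fell by 0.91 on the log2 scale, and Ets1 rose by 2.03. In Reintroduction against Auxin 5 were higher and 4 lower, and in Reintroduction against Mock 2 were higher and 6 lower.

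Cadherins work through catenins and nectins. Of 14 tested genes of the cadherin-catenin complex and other classical cadherins (17 listed), 7 were called higher and 4 lower in Auxin, with a median of 0.28. Cdh4, which encodes R-cadherin, rose from 0.785 ± 0.097 to 5.61 ± 0.60 CPM (log2 fold change 2.84, SE 0.13, adjusted p = 7.32e-09). Afdn, the junction adaptor afadin, rose by 1.08 (0.56 with the length trend removed) and Nectin3, an adhesion receptor that afadin binds, by 0.81 (0.20). After washout 3 were called higher and 3 lower. That count of 6 was 3 without Auxin replicate 1, without Reintroduction replicate 2 or without Reintroduction replicate 3. Against Mock, 8 were higher and 3 lower.

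Fibronectin is bound and assembled by integrins and syndecans. Of 10 tested fibronectin receptor and assembly genes (12 listed), 10 were called higher in Auxin against Mock (38.4% of all genes), with a median of 1.17, and 10 in Reintroduction against Mock (34.7% of all genes), with a median of 1.06. Itga5, the alpha subunit of the main fibronectin integrin, rose from 40.8 ± 2.19 to 130.3 ± 6.30 CPM in Auxin (log2 fold change 1.67, SE 0.060, adjusted p = 1.24e-09) and stood at 54.6 ± 2.00 CPM in Reintroduction. Its partner Itgb1 rose by 0.89 in Auxin, and Itgb1 was 0.98 above Mock in Reintroduction. Sdc4, a syndecan that also binds fibronectin, rose by 0.99. In Reintroduction against Auxin 2 of the 10 were called higher and 3 lower, and with length and GC trends removed 4 and 4.

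Mesenchymal cytoskeleton and matrix genes did not share a direction. Of 20 tested (25 listed), 9 were called higher and 9 lower in Auxin, with a median of 0.06. S100a6, a calcium-binding protein gene, rose by 1.80 and Fbn1, the microfibril gene, 2.82-fold (log2 0.92 with the length trend removed). Sparc, a matrix glycoprotein gene, fell by 1.23 on the log2 scale, from 233.7 ± 3.67 to 99.6 ± 7.67 CPM, and rose by 0.74 after washout, in the same directions as Vim. Acta2, S100a4, Tnc, Postn and Lox were below the filter. Dsp, Afdn, Esrp1 and Fbn1 share exon bases with another gene, so some of their counts may belong to it. After washout 11 were called higher and 4 lower, and against Mock 8 were higher and 6 lower.

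The last list held partners of SNAI and ZEB proteins and factors that set their turnover. Of 16 genes, all tested, 7 were called higher and 7 lower in Auxin, with a median of -0.04, near the shares over all genes. Ajuba, a LIM protein that SNAI repressors recruit, fell by 1.33 on the log2 scale, from 153.9 ± 4.10 to 61.1 ± 3.81 CPM, and rose by 0.97 after washout. Hdac1, a histone deacetylase, fell by 1.00, and Rcor1, a corepressor that works with Kdm1a, rose by 1.03. In Reintroduction against Auxin 6 were higher and 1 lower, and against Mock 7 were higher and 5 lower.

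**Figure D4:**
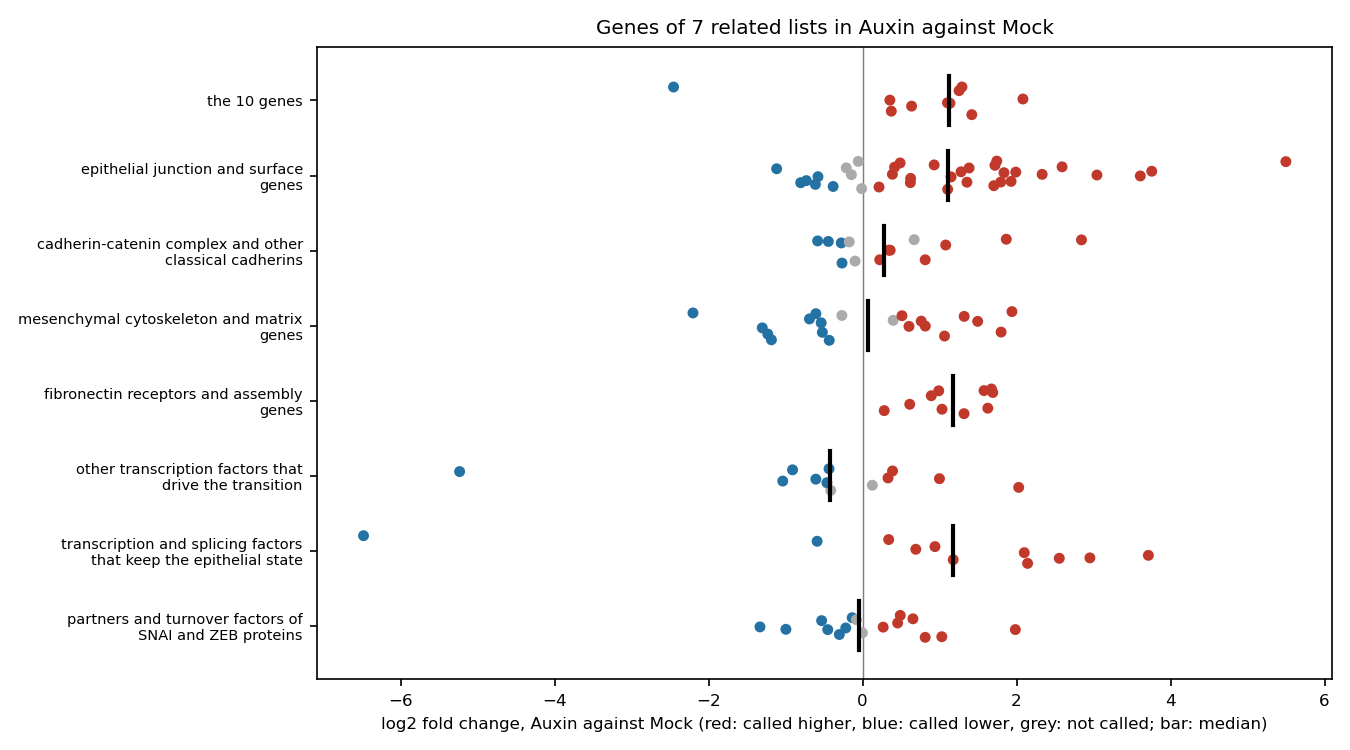
Log2 fold changes in Auxin against Mock for the 10 genes and the tested genes of 7 related lists. Each point is a gene on the horizontal log2 axis, coloured by its call, and black bars are medians; the vertical scatter within a list has no meaning. The medians are 1.11 for epithelial junction and surface genes, 1.17 for fibronectin receptors and 0.06 for mesenchymal genes; the leftmost point, Ehf, had 0 counts in Auxin, so its position is not a measured size.

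Markers of other cell types were also measured. The summed level of 10 primitive endoderm markers was 34.9 to 36.9 CPM in Mock, 57.2 to 58.7 CPM in Auxin and 50.3 to 53.0 CPM in Reintroduction, with Gata6, Sox17 and Cubn under 1 CPM in each group. In Auxin 8 of the 10 were called higher and 2 lower, among them Col4a1 (7.27 ± 0.40 CPM in Mock, 3.28 ± 0.52 CPM in Auxin). The summed level of 8 primitive streak and mesoderm markers was 48.6 to 50.1, 27.9 to 30.8 and 71.0 to 73.7 CPM, and Eomes made up most of it (35.4, 25.6 and 66.9 CPM on average). Against Mock, 2 of the 7 tested genes of this list were called higher and 3 lower in Auxin, and 3 higher and 2 lower in Reintroduction. T and Mixl1 were called lower than Mock in both other groups and stood at 13.8% and 24.5% of the Mock mean in Reintroduction. Kdr and Hand1 were called higher than Mock in both, with Hand1 under 1 CPM in every library. The sum of 7 neural progenitor markers was 23.7 to 24.4, 23.6 to 27.8 and 25.9 to 28.2 CPM and overlapped between Mock and Auxin, where Pax6 and Nes were called lower and Map2 higher. Nearly all of that sum came from Nes (17.6, 13.1 and 16.6 CPM on average) and Map2 (4.63, 11.9 and 9.11 CPM). The part of these marker lists in the changes of the 10 genes was not tested.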

How the data were processed

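The authors deposited raw read counts per gene for each library, without normalization. Per the file headers, they were made with featureCounts 2.0.6 over exons of an mm10 annotation, in paired-end mode, without strand and without counting pairs once. The submitters' processing notes also list Trim Galore 0.6.10, FastQC 0.12.1, Bowtie2 2.5.3 and SAMtools 1.20, with no roles. Symbols were matched by gene identifier (48058 of 48440 genes), and GC content came from GENCODE M21 transcripts (99.2% of genes).

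Genes passing edgeR's filterByExpr (20838) were scaled by TMM and tested in 1 quasi-likelihood fit of all 9 libraries with group as the only term (R 4.3.3, edgeR 4.0.16), two-sided, with Benjamini-Hochberg adjustment over all genes tested and a threshold of 0.05. SEs were derived from the F statistic. CPM values use TMM-scaled totals. The submitters call the replicates biological, and the sources used here do not say whether they were separate cultures, so p-values measure only the spread between these libraries. The fit was tested on simulated data in which, unlike here, only a small share of genes was changed. Its false calls there were somewhat above the nominal share, and the share of false calls in these data was not measured. Length and GC trends were splines (4 degrees of freedom) per library over genes with a mean above 2 log2 CPM, removed by an offset.

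The 10 genes and all lists were chosen with earlier results of these data known. Named beside the 10 genes are, of each related list, the 3 called genes with the smallest p in Auxin against Mock whose higher group averaged 1 CPM or more, and the 3 genes of the lists closest to Cdh1 and to Cdh2; genes under the filter, called lower within a mostly higher list, or counted in a marker list were named after their values were seen. Some genes that this rule names are not reported here. Alternatives were DESeq2 1.42.0 size factors and Wald test, total counts, other filters, a fit of 2 groups, the replicate number as a block, halved counts, the trend offsets, a fold of at least 2 and leaving out each library.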

Additional observations from a re-analysis of the deposited data

How the results depend on the processing

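The number of the 10 genes called stayed within 1.5 times its value under each alternative, except that requiring a fold of at least 2 left 4 for Reintroduction against Auxin and 2 for Reintroduction against Mock (7 for Auxin against Mock). Leaving out each library gave 10 to 10 called genes in Auxin against Mock, 7 to 7 for Reintroduction against Auxin, and 5 to 6 when set against Mock. With the replicate number as a block the counts were 10, 7 and 5, so the block changed no call among the 10 genes. Same-numbered libraries did not deviate together (correlations of -0.17 to 0.05), so the numbers were not taken as pairs. Afdn in Reintroduction against Auxin (-0.17) lost its call under several alternatives, with the block among them (-0.17, adjusted p = 0.0867).

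Values that changed direction were those of Cdh2 in Auxin against Mock with the length trend removed (-0.037) and the following. In Reintroduction against Auxin, Zeb1 was at -0.073 under total counts, -0.044 with a filter of 1 CPM, -0.0021 in the fit of 2 groups and -0.024 with halved counts, and Rcor1 was at -0.046 under total counts and -0.016 with the 1 CPM filter. Leaving out each library gave -0.11 (without Auxin replicate 2) to 0.076 (without Auxin replicate 3) for Zeb1, and -0.058 (without Auxin replicate 2) to 0.088 (without Auxin replicate 1) for Rcor1. In Reintroduction against Mock, Cdh1 was at 0.12 under total counts and 0.0090 with the 1 CPM filter, and Fn1 was at 0.0037 under total counts. With the length trend removed Snai1 was at 0.092 and Zeb2 at -0.34, and with both trends removed Snai1 was at 0.22 and Zeb2 at -0.54. Leaving out each library gave -0.071 to 0.0050 for Cdh1, -0.29 to 0.014 for Snai1 and -0.14 to 0.28 for Twist1. None of the values that changed direction passed the threshold. Apart from the trend offsets, whose construction takes length out, the cause was not tested. Snai2 and Zeb2, with under 100 counts in each library, have the widest errors. Total counts moved the median of all genes to 0.26 in Auxin against Mock and to 0.16 in Reintroduction against Mock, and the share of called genes that were higher to 63.3% and 59.9%, against 52.4% and 50.9%; in Reintroduction against Auxin that share went from 50.0% to 40.1%.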
